A study of Mus musculus with 22 samples.

Results

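The nuclear factor I genes Nfia, Nfib and Nfix were followed through 2 histone marks in 5 purified neural cell types, in a study of the mouse neocortex during development. Their members were all listed peaks that overlapped 3 windows of mouse build mm9, namely chromosome 4 from 97.40 to 97.82 Mb for Nfia, chromosome 4 from 81.90 to 82.20 Mb for Nfib and chromosome 8 from 87.21 to 87.35 Mb for Nfix. The windows held 106 of the 110069 peaks in the 10 lists, 30 at Nfia, 38 at Nfib and 38 at Nfix. The lists name no genes, so a gene name below stands for its window. The 3 genes were selected on measured values, their H3K27me3 at embryonic day (E) 9.5 and their H3K4me3 at E14.5, which are given as a description with no test. The study mapped H3K4me3 and H3K27me3 by chromatin immunoprecipitation and sequencing in purified cells of C57BL/6JOlaHsd mice, a single strain for which the labels name no other allele and no treatment. Neuroepithelial cells (NEC) came from E9.5 embryos, and the other cells came from E14.5 embryos, namely apical radial glia, either proliferative (aRG-P) or neurogenic (aRG-N), neurons (N) and basal radial glia (bRG). Each of the 10 combinations of cell type and mark had 2 samples, combined into 1 peak list. The labels do not say whether a pair came from separate embryos, except that the pair for H3K27me3 in aRG-N is labelled as technical replicates. No value below therefore has a spread between replicates, no difference was tested, and sequencing depth is unknown. NEC differ from the other cells in both age and type, which cannot be told apart. The labelled cell types could not be checked against marker genes, since peak lists hold no expression values.

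Nuclear factor I proteins are transcription factors that bind DNA as dimers through a shared domain near their amino terminus. In the forebrain they are known for driving radial glia towards differentiation and for the onset of gliogenesis, and mice without Nfia, Nfib or Nfix have malformed forebrain structures such as the hippocampus or the corpus callosum. H3K4me3 marks promoters that are active or poised, and H3K27me3 is laid down by Polycomb repressive complex 2 over promoters and domains that are kept silent. Both marks are known to favour promoters rich in CpG, the dinucleotide cytosine-guanine.

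RefSeq start sites of the members (build GRCm38.p6) differed widely in CpG content, and 3 of their upstream sequences are shown for that contrast. Nfia had 1 entry, Nfix had 4, and Nfib had none. Each line gives the 250 bases upstream of a start, 5′ to 3′, with every CpG in capitals. The starts of Nfix are numbered in the direction of transcription.
Nfia: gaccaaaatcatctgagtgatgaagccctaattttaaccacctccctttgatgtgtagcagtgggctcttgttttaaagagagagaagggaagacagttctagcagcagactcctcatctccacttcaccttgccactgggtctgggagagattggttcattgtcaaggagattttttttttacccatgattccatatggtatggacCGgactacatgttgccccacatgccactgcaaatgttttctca
Nfix start 1: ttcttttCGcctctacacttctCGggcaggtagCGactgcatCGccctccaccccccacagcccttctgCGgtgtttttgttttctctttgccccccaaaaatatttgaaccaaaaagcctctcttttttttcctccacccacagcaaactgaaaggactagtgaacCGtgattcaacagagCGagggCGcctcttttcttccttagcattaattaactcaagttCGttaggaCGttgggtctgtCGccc
Nfix start 4: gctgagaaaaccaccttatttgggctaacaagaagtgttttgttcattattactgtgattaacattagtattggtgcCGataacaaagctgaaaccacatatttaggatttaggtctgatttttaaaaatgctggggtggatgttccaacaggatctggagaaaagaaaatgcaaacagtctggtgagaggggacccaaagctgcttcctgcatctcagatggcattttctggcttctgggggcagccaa
The first start of Nfix had 11 CpG in this window, while Nfia and the fourth start of Nfix had 1 each. The median over 32851 promoter windows of the same length was 6. The sequence TTGGC, the core that nuclear factor I proteins recognise, was looked for on both strands. It occurred once upstream of the second and once upstream of the fourth start of Nfix and in none of the other 3 entries, and 41.5% of all such windows held it. These sequences belong to another build than the peaks, so none was placed under a peak.

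At E9.5 all 3 genes carried H3K27me3, but over very different lengths. The NEC peaks covered 96.5 kb at Nfix, 30.4 kb at Nfia and 9.37 kb at Nfib. As the windows differ in length (140.0 kb, 420.0 kb and 300.0 kb), this was 69.0% of the Nfix window, 7.23% of the Nfia window and 3.12% of the Nfib window.

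Nfix had 4 NEC H3K27me3 peaks, and a single one made up most of their length. It ran from 87257975 to 87338904 and measured 80.9 kb, which ranked 5 by width among the 9460 peaks of the NEC list. On the low-coordinate side followed peaks of 0.609 kb, 7.20 kb and 7.80 kb, separated by gaps of 9.34 kb, 6.45 kb and 1.32 kb. The last of these, from 87225253 to 87233048, had the highest score of all members, a value from the authors' broad peak caller whose unit is not settled. Of the peaks in the list, 99.3% scored lower than it and 97.0% scored lower than the 80.9 kb domain.

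Nfia had 5 NEC H3K27me3 peaks, and 2 of them were wide. They ran from 97415847 to 97428375 (12.5 kb) and from 97440270 to 97452681 (12.4 kb), with 11.9 kb between them. Of the peaks in the list, 96.9% were narrower than each, and 96.4% and 94.5% scored lower. The other 3 measured 2.01 kb, 0.468 kb and 2.96 kb.

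Nfib had 3 NEC H3K27me3 peaks, all shorter. The peak from 82180927 to 82186131 measured 5.21 kb (5205 bp), that from 82148133 to 82151010 measured 2.88 kb, and that from 82157151 to 82158435 measured 1.29 kb (1285 bp). Their scores exceeded those of 91.8%, 84.5% and 42.5% of the list. None of them reached 10 kb. Of the NEC H3K27me3 peaks, 2 of 5 at Nfia, 1 of 3 at Nfib and 1 of 4 at Nfix overlapped an NEC H3K4me3 peak, against 62.3% of the autosomal peaks of the list.

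**Figure D1:**
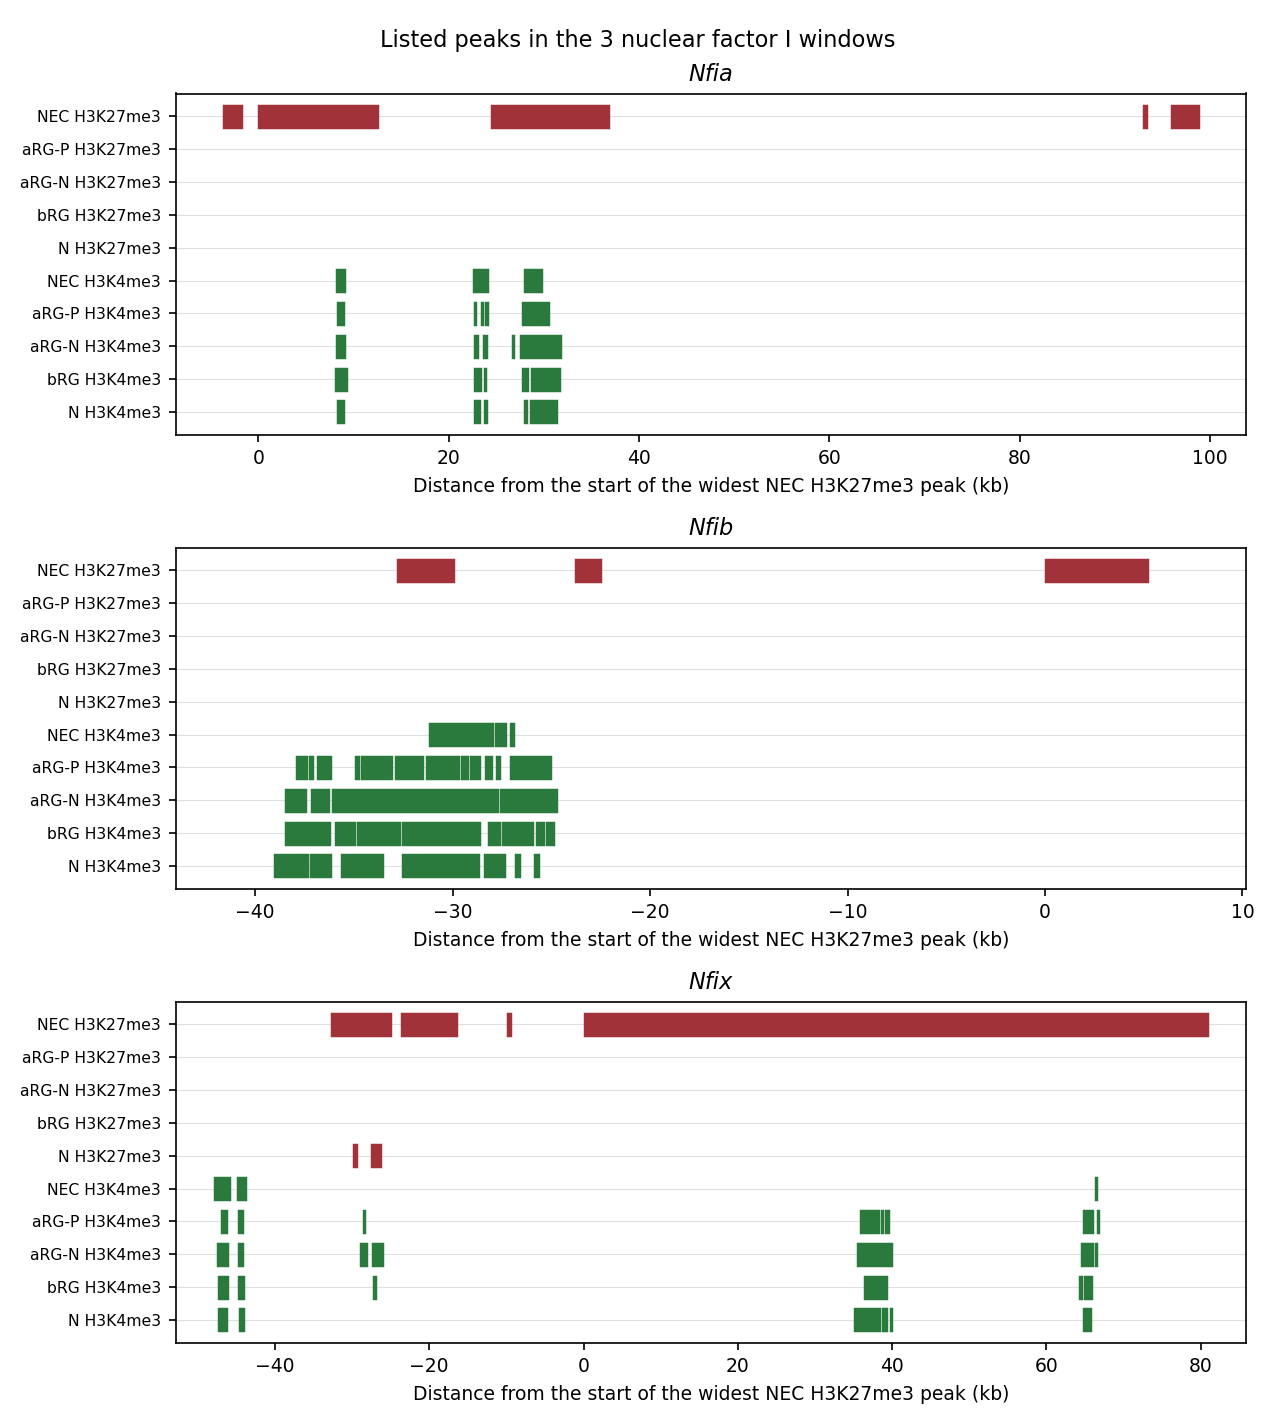
Positions of all 106 peaks at Nfia, Nfib and Nfix, with 1 row per cell type and mark. The x axis gives the distance in kb from the start of the widest NEC H3K27me3 peak of each window, bars are peaks drawn to scale, and each panel has its own range. H3K27me3 (red) was listed in NEC at all 3 genes and otherwise only as 2 short N peaks at Nfix, while H3K4me3 (green) was listed in every cell type.

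In E14.5 cells H3K27me3 was almost absent from the 3 windows. The 3 glial lists had 0 H3K27me3 peaks in every window, and N had 0 at Nfia, 0 at Nfib and 2 at Nfix. All 5 NEC peaks of Nfia, all 3 of Nfib and 3 of the 4 of Nfix overlapped no H3K27me3 peak of any E14.5 list. Over all NEC peaks on autosomes this held for 31.5% (1828 of 5798). Among NEC peaks of at least 10 kb on autosomes it held for 4.08% (13 of 319). The windows held 3 peaks of that width, the 80.9 kb domain of Nfix and the 12.5 kb and 12.4 kb domains of Nfia, and all 3 were among the 13. As the genes were chosen for this contrast, nothing is read from that count.

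The deposited lists keep peaks near transcripts, which could hide a call, so the running numbers in the peak names were used to look for calls left out. In 11 of the 12 pairs of window and E14.5 list no number was missing between the listed H3K27me3 peaks that flank the window. The exception was aRG-P at Nfia, where 1 call was missing somewhere in a stretch that reached 2020 kb below and 573 kb above the window. The lists differ in reach, with 9460 H3K27me3 peaks in NEC and between 3476 (bRG) and 6830 (aRG-N) at E14.5. Of the NEC peaks only 5798 lay on autosomes, as the windows do, and the autosomal numbers at E14.5 were not counted. The part of the difference in reach in the absence was not tested. The nearest E14.5 H3K27me3 peaks to the Nfix window lay 83.4 kb (aRG-P) to 126 kb (N) below it and 86.2 kb (aRG-N) to 118 kb (bRG) above it.

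The 2 N peaks lay in the part of the Nfix window where progenitors had H3K4me3. They ran from 87228108 to 87228607 (500 bp) and from 87230442 to 87231713 (1272 bp), and both fell inside the 7.80 kb NEC peak named above. Their scores were low, exceeding those of 11.4% and 29.0% of the N list. Per the peak names, the N H3K27me3 reads were extended and the aRG-P H3K27me3 reads excluded a set. The part of this handling in the difference between N and the glia was not tested. In the same stretch aRG-P had an H3K4me3 peak of 301 bp, aRG-N had 2 of 811 and 1499 bp, and bRG had 1 of 448 bp, with fold enrichments of 4.28, 6.03, 6.34 and 3.90. Neither NEC nor N had a listed H3K4me3 peak there, but 1 NEC call and 4 N calls missing from the lists fell somewhere in gaps that include this stretch. In GRCm38.p6 the protein-coding genes Trmt1 and Lyl1 precede Nfix in coordinate order and Dand5 follows, and which of these genes the stretch belongs to was not settled.

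**Figure D2:**
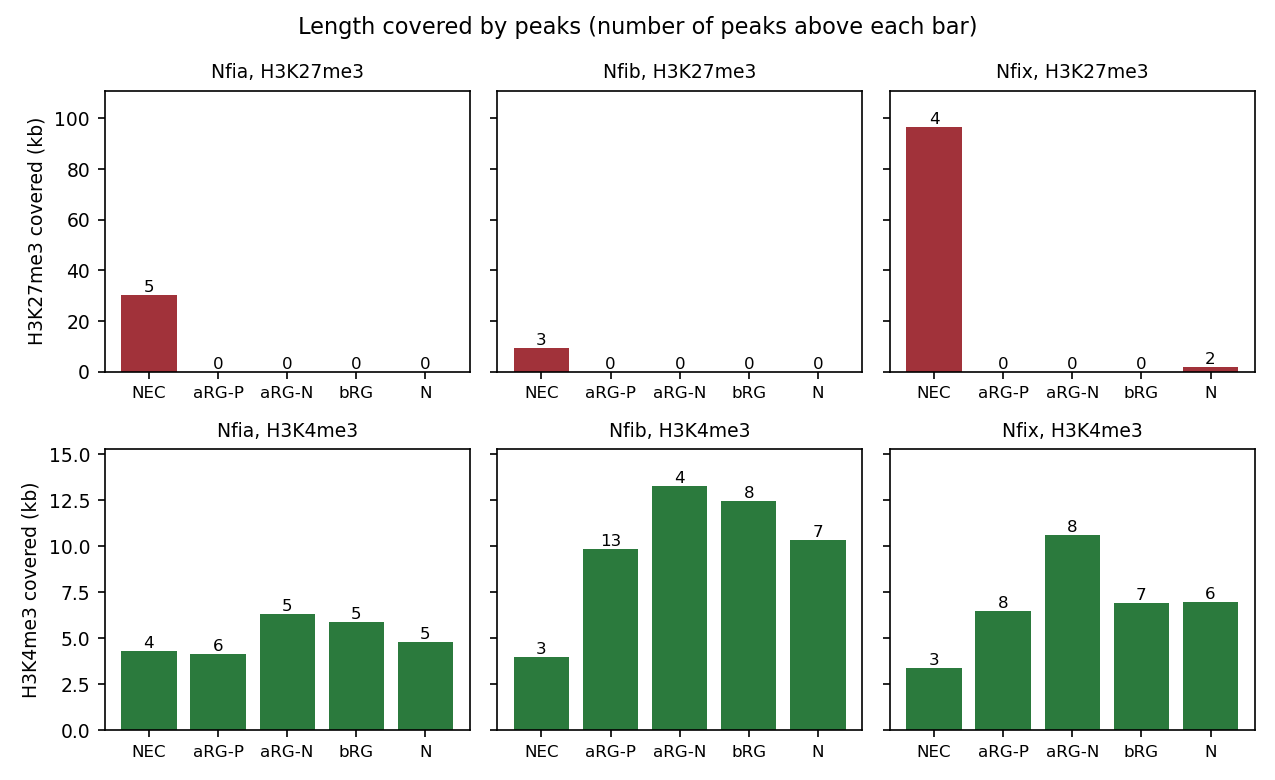
Length in kb covered by H3K27me3 peaks (upper row) and H3K4me3 peaks (lower row) in each cell type at Nfia, Nfib and Nfix, with the number of peaks above each bar. The marks have separate y axes. H3K27me3 covered 96.5 kb at Nfix in NEC and 1.77 kb in N, the only bar above 0 at E14.5, and H3K4me3 at Nfib covered 3.999 kb in NEC and 9.85 to 13.3 kb at E14.5.

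H3K4me3 peaks of NEC were listed in all 3 windows, and at Nfix they lay almost entirely at the lower edge of the window. Not every H3K4me3 call is in the lists. Between the listed peaks that flank a window, the running numbers showed 1 to 3 missing calls per E14.5 list at Nfia, 4 to 8 at Nfib and 3 to 6 at Nfix, and 2, 5 and 1 in NEC. The H3K4me3 lengths and absences below hold for listed peaks only, and the lengths may be lower limits at all 3 genes. Nfia had 4 NEC peaks covering 4.31 kb, with a highest fold enrichment of 12.8 over background as given by the authors' peak caller. Nfib had 3 peaks covering 3.999 kb, with a highest value of 16.3. At Nfix the peak from 87324323 to 87324505 was 183 bp long with a fold enrichment of 5.42, and no peak of the list was shorter. The remaining 2 NEC peaks of the Nfix window lay at its lower edge, outside every H3K27me3 peak, and were strong, with fold enrichments of 37.9 and 51.2. With them the NEC peaks of Nfix covered 3.38 kb. Those edge regions, from 87210105 to 87212174 and from 87213052 to 87214180, had a peak in all 5 lists. The median of the NEC list was 18.7, so only the edge peaks lay above it.

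In NEC both marks overlapped at 2 peaks of Nfia, 1 of Nfib and 1 of Nfix, counting H3K4me3 peaks that touched an NEC H3K27me3 peak, among 4, 3 and 3. Over the whole NEC list this share was 25.9%. At E14.5 none of the 21, 32 and 29 H3K4me3 peaks of the 3 genes overlapped H3K27me3 of its own cell type. Over the whole lists this share was 14.4% for aRG-N, 8.90% for aRG-P, 8.41% for bRG, 12.7% for N and 11.1% together. Except for the 6 N peaks of Nfix, the absence of overlap was fixed in advance. No other E14.5 list or window had an H3K27me3 peak to overlap, so nothing is read from the comparison. Overlap of separate lists does not show that both marks sat in the same cell.

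By length under listed peaks, Nfib had more H3K4me3 than Nfia or Nfix in each of the 4 E14.5 cell types. By number of peaks this did not hold in aRG-N, with 4 at Nfib, 5 at Nfia and 8 at Nfix. At Nfib H3K4me3 covered 13.3 kb in aRG-N (4 peaks), 12.5 kb in bRG (8 peaks), 10.3 kb in N (7 peaks) and 9.85 kb in aRG-P (13 peaks), against 3.999 kb in NEC. The range of the E14.5 values did not reach down to the NEC value. The whole NEC list covered more H3K4me3 (20.3 Mb) than any E14.5 list (11.8 to 15.6 Mb). The part of list coverage in the order at Nfib was not tested.

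When peaks of a list within 3000 bp of each other were joined, Nfib formed a single cluster in each cell type. It measured 13.8 kb in aRG-N, 13.6 kb in bRG, 13.4 kb in N, 12.9 kb in aRG-P and 4.31 kb in NEC. By width it ranked 1 of 11618 clusters in N, 2 of 11554 in aRG-P, 2 of 11517 in bRG, 5 of 12104 in aRG-N and 401 of 13399 in NEC. Joining across 1000 bp gave ranks of 1 in N, 6 in aRG-P, 1 in bRG, 4 in aRG-N and 228 in NEC, and joining across 5000 bp gave 1, 4, 5, 11 and 664 in this order. The cluster was thus among the widest of each E14.5 list at all 3 distances. Ranks from lists of different lengths do not measure a change.

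The strongest point of the Nfib cluster stayed at nearly the same base at E14.5. The summit of the strongest peak lay at 82150915 in aRG-N, 82150927 in bRG, 82150932 in aRG-P and 82150982 in N, and at 82151531 in NEC. The fold enrichment there was 20.9 in aRG-N, 13.7 in aRG-P, 13.4 in bRG, 11.0 in N and 16.3 in NEC. Of the peaks in each list, 95.2% in aRG-N, 90.2% in bRG, 85.3% in aRG-P, 81.3% in N and 43.0% in NEC had a lower value. The cluster ran across the NEC H3K27me3 peak of 2878 bp, and aRG-N H3K4me3 covered all 2878 bp of it, against 1258 bp for NEC H3K4me3. At the low-coordinate end, a joined region from 82141902 to 82144790 had H3K4me3 in all 4 E14.5 lists and no listed NEC peak, with highest fold enrichments of 7.09 in N, 6.57 in bRG, 6.22 in aRG-N and 6.21 in aRG-P.

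**Figure D3:**
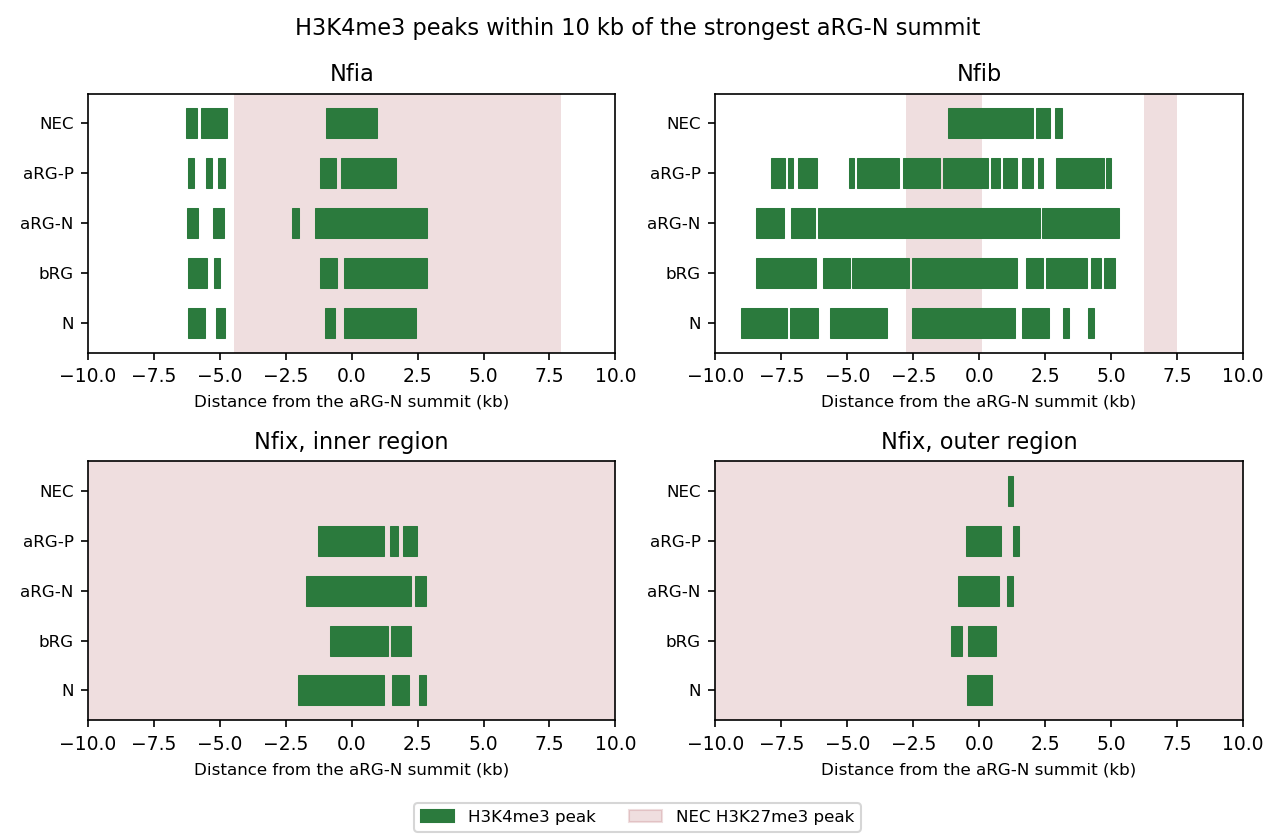
H3K4me3 peaks (green, 1 row per cell type) within 10 kb of the strongest aRG-N summit at Nfia, Nfib and 2 regions of Nfix, with NEC H3K27me3 peaks shaded. The x axis is the distance from that summit in kb. At Nfib the cluster spanned 4.31 kb in NEC and 12.9 to 13.8 kb at E14.5, and at the inner region of Nfix NEC had no listed peak.

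Nfia was the gene whose H3K4me3 regions were mostly in place in NEC. Of its 4 joined H3K4me3 regions 3 had a peak in all 5 lists, and the fourth was a 247 bp peak of aRG-N. H3K4me3 covered 4.31 kb in NEC, 6.33 kb in aRG-N, 5.91 kb in bRG, 4.77 kb in N and 4.16 kb in aRG-P, so NEC lay within the E14.5 range.

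Within Nfia the regions differed from each other. The widest, from 97443355 to 97447602 inside the 12.4 kb NEC H3K27me3 domain, had 1925 bp under H3K4me3 peaks in NEC, 4248 bp in aRG-N, 3772 bp in bRG, 3139 bp in N and 2702 bp in aRG-P. Its strongest peak exceeded 33.9% of the list in NEC, 88.1% in aRG-N, 87.7% in aRG-P, 79.4% in bRG and 65.5% in N. The region from 97438437 to 97440008, in the gap between the 2 wide H3K27me3 domains, went the other way, with 1429 bp in NEC, 968 bp in N, 916 bp in bRG, 854 bp in aRG-N and 693 bp in aRG-P. Its strongest peak exceeded 33.7% of the list in NEC, 22.3% in aRG-N, 20.5% in N, 2.77% in bRG and 7.10% in aRG-P. A further region, from 97423939 to 97425156 inside the 12.5 kb domain, had a single peak in each list with fold enrichments of 8.86 in NEC, 11.1 in aRG-N, 7.53 in bRG, 6.998 in aRG-P and 6.74 in N.

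Nfix had H3K4me3 at E14.5 in places where NEC had H3K27me3 and no listed H3K4me3 peak. The NEC call missing from the list lay somewhere between 87214180 and 87324323, a span that holds both regions described next. The inner of 2 such regions inside the 80.9 kb domain ran from 87293084 to 87297922, 35.1 kb from the lower end of the domain and 41.0 kb from its upper end. Its peaks covered 4387 bp in aRG-N, 4163 bp in N, 2965 bp in bRG and 3313 bp in aRG-P, and NEC had no listed peak. The highest fold enrichments were 12.99, 7.63, 7.53 and 9.42 in this order, which exceeded 55.8%, 42.2%, 40.5% and 51.9% of the lists. By fold enrichment these strongest peaks were middling, while the strongest peak of the Nfib cluster exceeded 81.3 to 95.2% of the E14.5 lists. Other Nfib peaks were weaker, and in the region at the low-coordinate end of the cluster the highest exceeded 18.4 to 36.1%.

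The outer region ran from 87322152 to 87324028, 14.9 kb from the upper end of the domain. It had 1558 bp of H3K4me3 in aRG-N, 1454 bp in bRG, 1319 bp in aRG-P and 942 bp in N. The highest fold enrichments were 13.3, 7.25, 6.43 and 5.52 in this order, and exceeded 57.9%, 36.5%, 24.4% and 17.3% of the lists. Next to it, from 87324281 to 87324747, short peaks of 238 bp in aRG-P and 232 bp in aRG-N met the 183 bp peak of NEC, and bRG and N had none. Apart from the 2 edge regions, H3K4me3 at Nfix covered 183 bp in NEC, 8487 bp in aRG-N, 5171 bp in aRG-P, 5105 bp in N and 4867 bp in bRG, and all of it lay inside NEC H3K27me3 peaks.

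**Figure D4:**
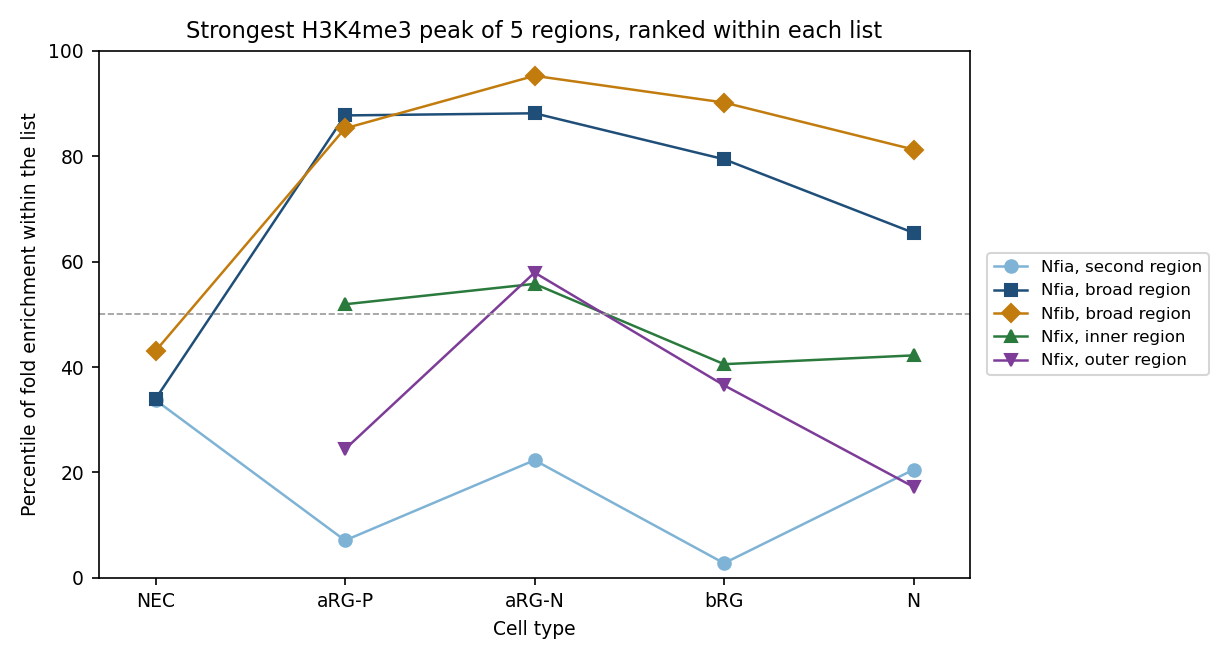
Share of each H3K4me3 list, in percent, with a lower fold enrichment than the strongest peak of 5 regions (y axis), with the second region of Nfia lying between its wide H3K27me3 domains, by cell type (x axis). Lines join the values of a region, the dashed line marks the middle of a list, and a missing point means that the list had no peak there. The broad regions of Nfib and Nfia sat at 65.5 to 95.2% at E14.5, and both Nfix regions at 17.3 to 57.9%.

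Counted by peaks, the 3 genes differed in what E14.5 H3K4me3 met in NEC. Peaks with no listed NEC H3K4me3 peak beneath them numbered 1 of 21 at Nfia, 19 of 32 at Nfib and 20 of 29 at Nfix, against 2.78% of all H3K4me3 peaks of the 4 E14.5 lists. Per list the background was 2.50% in aRG-N, 2.62% in aRG-P, 2.43% in bRG and 3.55% in N. Peaks that overlapped NEC H3K27me3 numbered 12 of 21, 6 of 32 and 21 of 29, against 20.1% (22.0% in aRG-N, 19.7% in N and 19.5% in both aRG-P and bRG). Peaks that met NEC H3K27me3 and no NEC H3K4me3 numbered 1 of 21 (4.76%), 2 of 32 (6.25%) and 20 of 29 (69.0%), against 0.832% (0.649% in aRG-N, 0.876% in aRG-P, 0.789% in bRG and 1.00% in N). The contrast between NEC and E14.5 was known when the genes were chosen, and nothing is read from these shares. Neighbouring peaks of a window are also not independent, as a region cut into several peaks counts several times. At Nfib the 19 peaks lay at the sides of the cluster that NEC also had, and after joining across 3000 bp none was left without an NEC cluster beneath it. At Nfix 9 of 15 clusters remained without one.

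Among the E14.5 cells aRG-N had the greatest length of listed H3K4me3 at each of the 3 genes. It covered 6.33 kb at Nfia, 13.3 kb at Nfib and 10.6 kb at Nfix, and the next highest values were 5.91 kb (bRG), 12.5 kb (bRG) and 6.96 kb (N). The aRG-N list as a whole also covered the most of the 4 (15.6 Mb) and had the highest median fold enrichment (11.8, against 8.26 to 8.997), and its part in the order was not tested. The lowest listed length was that of aRG-P at all 3 genes (4.16, 9.85 and 6.50 kb). The aRG-P list as a whole also covered the least (11.8 Mb). At Nfix, with 5 calls missing in aRG-P, 6 in bRG and 4 in N, the order of these lists is not settled. Apart from the 2 edge regions of Nfix, bRG was lowest there (4867 bp), below N (5105 bp) and aRG-P (5171 bp). N had less than bRG at Nfia (4.77 kb) and Nfib (10.3 kb) and nearly the same at Nfix (6.96 kb in N and 6.92 kb in bRG).

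Regions elsewhere with H3K27me3 in NEC only and H3K4me3 in every E14.5 list were sought by position. NEC H3K27me3 peaks on autosomes that overlapped no E14.5 H3K27me3 peak and an H3K4me3 peak in all 4 E14.5 lists numbered 558 of 5798 (9.62%), and among peaks of at least 10 kb they numbered 10 of 319 (3.13%). By width the Nfix domain ranked 1 of the 558, and the wide domains of Nfia ranked 7 and 8. The others in between lay on chromosome 13 from 83852072 to 83883355 (31.3 kb), chromosome 12 from 50473557 to 50503223 (29.7 kb), chromosome 7 from 86639362 to 86662100 (22.7 kb), chromosome 3 from 88003000 to 88025191 (22.2 kb) and chromosome 3 from 17684490 to 17697599 (13.1 kb). The highest aRG-N fold enrichment of H3K4me3 inside them was 22.5, 16.5, 23.5, 18.7 and 10.1 in this order, against 13.3 in the Nfix domain. The search did not ask for absence of NEC H3K4me3. All 5 overlapped an NEC H3K4me3 peak, as did the wide domains of Nfia and, through its 183 bp peak, the Nfix domain.

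Few listed peaks lay close to the borders of the Nfia and Nfib windows, unlike those of the Nfix window. Below the Nfia window the nearest E14.5 H3K4me3 peak was 148 kb away in all 4 lists, with fold enrichments of 7.85 in aRG-N, 5.28 in bRG, 4.65 in N and 2.999 in aRG-P, while the nearest in NEC was 1142 kb away. At Nfib the nearest H3K4me3 peaks lay 811 kb below and 305 kb above the window in all 5 lists. Nfix was the crowded case, with H3K4me3 peaks of all 5 lists 20.2 to 20.5 kb below and 5.78 to 6.03 kb above its window, and the upper ones had fold enrichments of 31.5 in NEC, 18.7 in aRG-N, 12.0 in aRG-P, 10.8 in bRG and 8.53 in N. Just inside its lower border lay the edge regions named above.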

How the data were processed

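Per the submitters' processing notes, Bowtie 1.0.0, MACS2 and bedtools were used with build mm9. The deposited files were 10 peak lists, each called on combined samples per the peak names, so no replicate could be compared. For H3K4me3 the deposited columns give a fold enrichment (a ratio), −log10 p and −log10 q values and the summit. For H3K27me3 the deposited columns were treated as a score of unsettled meaning. Per the peak names, the aRG-P H3K27me3 reads excluded a set and the N H3K27me3 reads were extended. Per the file headers, peaks near transcripts were kept. The series also has 2 Input samples, not used here.

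The windows, members and tests were chosen with earlier results of these data known. Overlap meant at least 1 bp. A percentile is the share of a whole list, all chromosomes included, with a lower value. The width rank in the NEC H3K27me3 list was likewise taken over all chromosomes. All peaks of the windows were counted. Other regions were named as the 5 widest outside the windows with H3K27me3 in NEC only and H3K4me3 in every E14.5 list. Positions are 1-based. RefSeq tables of GRCm38.p6 gave gene order and promoter sequences only. Python 3.11.15, numpy 2.4.6, pandas 2.3.3 and matplotlib 3.10.9 were used. Overlap calling was tested on altered copies of the aRG-N lists, and all 200 removed and all 200 added peaks were found for each mark. The added peaks were picked with the same overlap function, so their count was fixed in advance. Comparing all pairs on chromosome 19 directly gave the same calls for all 499 H3K4me3 and 227 H3K27me3 peaks. Alternatives covered list length, −log10 q, joining, overlap and window width.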

Additional observations from a re-analysis of the deposited data

How the results depend on the processing

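No paired analysis was possible because each list combines both samples of its group, and for the same reason no replicate could be left out. Of 71 recomputed counts 53 stayed within 1.5 times the value given and 18 did not. Joining peaks across 3000 bp gave 3 NEC H3K27me3 peaks at Nfia (3 without an E14.5 peak), 1 E14.5 H3K27me3 peak at Nfix, and 11, 4 and 15 E14.5 H3K4me3 peaks at Nfia, Nfib and Nfix, of which 0, 0 and 9 had no NEC H3K4me3. Such counts fall because joining merges peaks. With each H3K27me3 list shortened to its 3476 highest scores, Nfia had 3 NEC peaks, all 3 without an E14.5 peak, and Nfix had 0 E14.5 peaks. For E14.5 H3K4me3 peaks without NEC H3K4me3, Nfia had 0 with a −log10 q of at least 5, 4 with an overlap of at least 50% and 0 with no NEC peak within 5000 bp, and Nfib had 6 with no NEC peak within 5000 bp. With an overlap of at least 50%, 0 H3K4me3 peaks of Nfib overlapped H3K27me3 of the same cell type. Widening the windows by 50 kb raised the E14.5 H3K4me3 peaks of the Nfix window to 68, as neighbouring peaks entered. Without the edge regions of the Nfix window, an alternative chosen after seeing the data, 21 were left. The cause of the other changes was not tested. Depth is unknown, so an absent peak may be a weak one.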

Other observations

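Gaps in the running peak numbers showed that some H3K4me3 calls within the Nfix window were not in the lists used here. Between the first and the last listed peak of each E14.5 list in a window, 18 calls were missing at Nfix, 1 at Nfib and 0 at Nfia. Whether the calls missing farther out, up to the peaks that flank the windows of Nfib and Nfia, lie inside these windows is not known. Between the lower stretch of the Nfix window and the inner region, 5 were missing in aRG-P, 2 in aRG-N and 5 in bRG, and 4 were missing in N between 87213910 and 87293084. NEC had 1 missing call, between 87214180 and 87324323. No H3K27me3 call was missing at Nfix in any list.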
